A study of Mus musculus with 44 samples.

Results

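The genes described here belong to the antioxidant defence that the transcription factor NRF2 is known to control, and to the glutathione and thioredoxin systems that work with it. NRF2 (gene Nfe2l2) is held at a low level by KEAP1, which marks it for degradation. When electrophiles or oxidants modify KEAP1, NRF2 accumulates and, with a small MAF protein, binds antioxidant response elements in the promoters of its target genes. The enzymes made from those genes build glutathione, conjugate it to reactive compounds, reduce peroxides and quinones, and supply the NADPH that this chemistry consumes. Some of them, Nqo1 above all, are also known as targets of the aryl hydrocarbon receptor (AhR), the receptor that binds dioxins.

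The set holds 39 named genes, taken as all probe sets of the array that are annotated to 1 single symbol among them. Of these, 33 had such a probe set, 74 probe sets in all, out of 18193 genes measured that way. Prdx1, Ftl1 and Esd lie only on probe sets that also name other genes, and Prdx5, Prdx6 and G6pdx have no listed probe set, so no level is given for these 6. Where a gene had several probe sets (24 members), the one with the highest mean over all arrays stands for it. Aldh3a1 (highest group mean 5.72) stayed below the filter on low signals, which asks for a group mean above 6.21, the median of all values. That left 32 members among 11970 genes tested. Srxn1 passed by little, with a highest group mean of 6.22, and Osgin1 (6.97) and Gsta4 (7.14) were the next lowest.

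The cells were CH12.LX, a mouse B cell lymphoma line, activated with LPS (lipopolysaccharide from bacterial outer membranes). They received TCDD (2,3,7,8-tetrachlorodibenzo-p-dioxin, a persistent AhR ligand) at 10 nM, or its vehicle dimethyl sulfoxide (DMSO) at 0.01%, and were harvested after 8, 12, 24, 36 and 48 h. Untreated cells were harvested at 0 h. Each of these 11 groups has 4 arrays of 1 cell line, and each replicate was treated and harvested on its own day, so that the replicate number marks a day. TCDD and DMSO cells share the LPS and the time in culture, whereas DMSO cells differ from untreated cells in LPS, vehicle and time together, which cannot be told apart.

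Array medians ran from 45.2 to 99.2 signal units, and their number, 4 per group, limits the precision. The highest medians were those of untreated replicate 4 (99.2) and DMSO 12 h replicate 4 (87.9). Untreated replicate 3 and DMSO 48 h replicate 2 had 3' to 5' log2 ratios of 3.34 and 3.12 for the transferrin receptor control, against a median of 1.19. Of 7 listed B cell markers, 6 had a probe set and all 6 passed the filter, with array means of 10.6 to 12.2. Macrophage and monocyte markers averaged 6.71 to 7.91 and 4 of 6 passed, with group means of 7.65 to 10.64 for Csf1r, 9.43 to 10.67 for Cd68 and 7.31 to 9.21 for Adgre1, against at most 6.62 for Cd14 and 5.80 for Itgam. T cell markers averaged 6.02 to 6.84 and 4 of 6 passed, with 8.62 to 9.38 for Cd8a and at most 5.97 for Cd3d. Fibroblast markers averaged 5.31 to 6.23 (3 of 5 passed) and red cell markers 4.42 to 6.28 (0 of 2). All arrays come from 1 cell line, and the source of the signal of these other markers was not tested. Cyp1a1, the monooxygenase gene used as a marker of AhR activity, was higher in TCDD than in DMSO cells by 4.50 to 6.01 on the log2 scale over the 5 times. Tiparp and Ahrr, 2 other known AhR targets, were higher at every time too. Cyp1a1 was itself 2.15 and 2.40 higher in DMSO cells at 8 and 12 h than in untreated cells.

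All levels below are log2(signal + 16) after quantile normalization, and a log2 change is a difference between 2 group means on that scale. It understates the fold of dim genes. Changes were tested with limma over all 11970 genes at a Benjamini-Hochberg adjusted p of 0.05. The main fit leaves the day out. A second fit has the day as a block, and its result is given where it changes a call. In RNA from a whole culture, fewer expressing cells and less RNA per cell cannot be told apart.

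What TCDD did to these genes is the first question of the design. Most of the tested members passed the threshold at no time. Nqo1 rose at 8, 12 and 24 h, Txnrd1 at 12 h and Gclc at 36 h. Gclm fell at 12 and 24 h, Abcc1 at 8 h and Sod2 at 24 h. At 36 and 48 h the genes that fell were Prdx4, Gstm5, Gstp1 and Gpx4. In all, 10 of the 32 tested members passed the test at 1 or more times, 6 of them at 2 or more, and 22 at none (17 at none with the day as a block). Over all genes, 20.2% passed at 1 or more times, and 35.1% with the block.

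At 8, 12 and 24 h the counts of 1 or 2 members each way lay close to the shares over all genes. At 36 and 48 h, 4 of 32 members fell, a larger share than among all genes. The difference was not tested, and the members were chosen with earlier results of these data known. At 8 h, 1 member rose and 1 fell, where 2.75% of all genes tested were called higher and 1.4% lower. At 12 h, 2 rose and 1 fell (6.07% and 3.14% of all genes). At 24 h, 1 rose and 2 fell (4.8% and 2.77%). At 36 h, 1 rose and 4 fell (3.49% and 2.4%). At 48 h, 0 rose and 4 fell (4.31% and 4.54%). With the day as a block the counts grew by over 1.5 times at 4 of the 5 times. They were 2 higher and 3 lower at 8 h (4.92% and 3.47% of all genes), 4 and 2 at 12 h (9.9% and 6.39%), 5 and 4 at 36 h (6.06% and 4.86%), and 2 and 5 at 48 h (7.47% and 8.15%). The members' median log2 change lay between -0.08 at 48 h and 0.01 at 12 h, and that of all genes between -0.02 and 0.01.

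**Figure D1:**
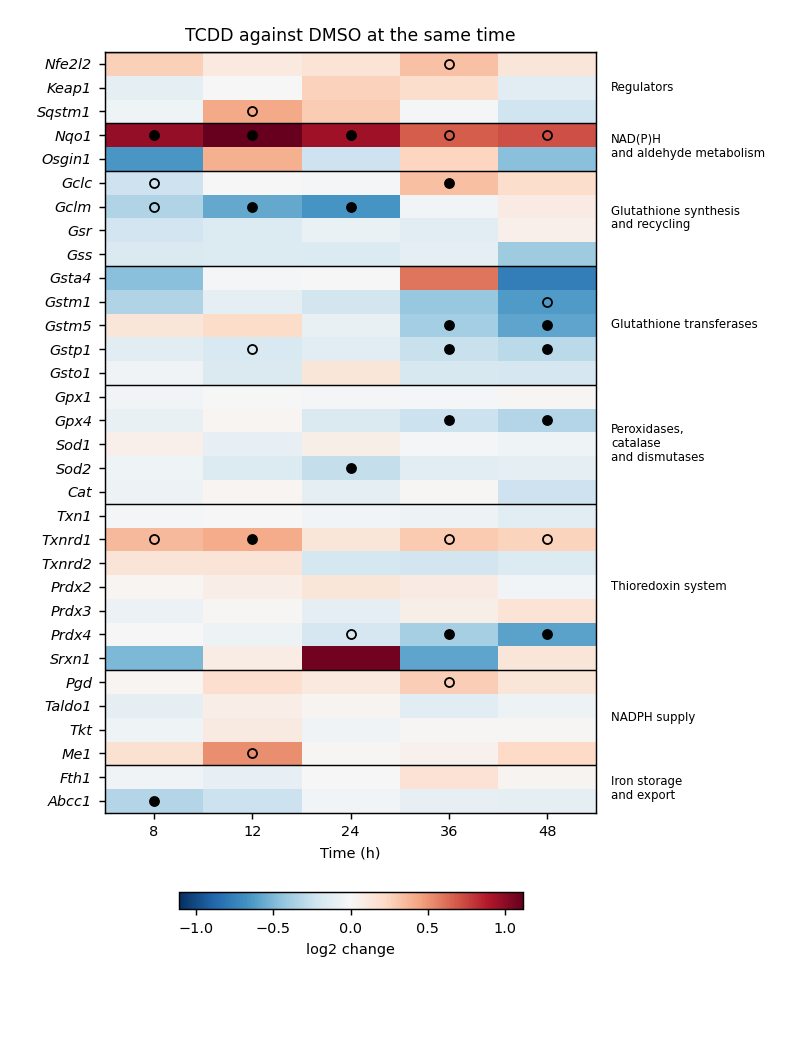
log2 change of TCDD against DMSO cells at each time (h) for the 32 tested members, grouped by role; filled circles mark changes past the threshold in the main fit and open circles those past it only with the day as a block. Nqo1 is red in every column, Gclm is blue at 8 to 24 h, and Prdx4, Gstm5, Gstp1 and Gpx4 turn blue at 36 and 48 h.

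The promoters of the members that TCDD changed at 2 or more times are shown because they carry, or lack, the short motifs that AhR and NRF2 are known to bind. Each line gives 250 bases before a transcription start, 5′ to 3′ on the gene's strand (RefSeq, GRCm38.p6). Capitals mark the AhR core GCGTG and the antioxidant response element core TGACNNNGC, on either strand. Txnrd1, called at 1 time, is added with the 1 of its 3 listed starts that holds an antioxidant response element core.
Nqo1 (chr8:107403206-107403455, minus strand): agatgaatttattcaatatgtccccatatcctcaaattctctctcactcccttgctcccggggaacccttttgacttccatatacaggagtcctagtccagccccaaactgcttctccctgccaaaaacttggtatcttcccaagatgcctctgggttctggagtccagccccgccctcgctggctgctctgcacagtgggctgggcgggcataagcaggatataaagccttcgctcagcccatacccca
Txnrd1 (chr10:82858956-82859205, plus strand): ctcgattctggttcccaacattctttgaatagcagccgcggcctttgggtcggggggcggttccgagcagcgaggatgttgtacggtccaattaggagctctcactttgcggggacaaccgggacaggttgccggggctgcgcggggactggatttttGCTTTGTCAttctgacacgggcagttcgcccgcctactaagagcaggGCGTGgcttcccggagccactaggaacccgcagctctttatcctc
Gclm (chr3:122245307-122245556, plus strand): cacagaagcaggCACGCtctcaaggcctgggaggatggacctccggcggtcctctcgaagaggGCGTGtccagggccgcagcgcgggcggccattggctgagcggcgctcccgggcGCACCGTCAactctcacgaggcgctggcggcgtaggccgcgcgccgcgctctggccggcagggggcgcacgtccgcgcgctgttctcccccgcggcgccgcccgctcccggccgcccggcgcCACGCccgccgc
Gstm5 (chr3:107895604-107895853, plus strand): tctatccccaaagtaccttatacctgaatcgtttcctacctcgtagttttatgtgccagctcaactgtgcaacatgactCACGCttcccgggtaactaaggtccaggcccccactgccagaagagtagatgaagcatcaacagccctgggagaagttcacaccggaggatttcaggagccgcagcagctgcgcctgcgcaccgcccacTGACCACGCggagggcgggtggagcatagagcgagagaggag
Gstp1 (chr19:4037913-4038162, minus strand): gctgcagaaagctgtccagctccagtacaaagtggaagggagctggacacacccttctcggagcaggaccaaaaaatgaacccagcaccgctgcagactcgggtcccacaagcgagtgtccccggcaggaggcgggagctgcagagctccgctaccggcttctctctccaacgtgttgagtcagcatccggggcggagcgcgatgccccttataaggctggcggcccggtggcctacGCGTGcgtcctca
Prdx4 (chrX:155338461-155338710, minus strand): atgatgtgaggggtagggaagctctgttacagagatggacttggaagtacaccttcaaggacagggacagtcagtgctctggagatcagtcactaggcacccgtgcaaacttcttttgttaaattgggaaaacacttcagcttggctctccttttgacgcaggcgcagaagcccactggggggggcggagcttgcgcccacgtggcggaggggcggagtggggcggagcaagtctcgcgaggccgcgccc

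Nqo1 and Prdx4, which moved in opposite directions, both had neither motif in these 250 bases. The Gclm window held 1 antioxidant response element core, 134 bases before the start, and 3 AhR cores. In the Gstm5 window the element core, 42 bases before the start, runs into 1 of its 2 AhR cores, so that they share letters. Gstp1 had 1 AhR core. Txnrd1 had 1 of each in the start that was picked because it holds an element core. Its other listed starts each had 0 element cores and 1 AhR core. Sod2, also called at 1 time and not printed, had 0 element cores and 2 AhR cores. Gpx4, the sixth member changed at 2 or more times, has 4 listed starts, with 0 element cores and 0, 1, 2 and 1 AhR cores. Of the 39 members 33 had a listed window, 42 windows in all. These are not the same 33 that had a probe set. Prdx1, Prdx5, G6pdx, Ftl1 and Esd had a window but no level. Gclc, Gsr, Gsta4, Abcc1 and Aldh3a1 had a level but no window. The antioxidant response element core was found in 7 of the 42, against 10.2% of all 32851 windows. The AhR core was found in 28 of the 42, against 28.2% of all windows. Some windows of Gstm1 and of Gpx4 overlap and share a site, which is then counted again. By gene, 23 of 33 held an AhR core and 7 an element core. The 7 include Prdx1 and G6pdx, which had no level here. The shares over all genes were counted by window and not by gene. Base content was not matched, and the difference from all windows was not tested. A match is a string of letters and not a shown binding site, and a missing match says nothing of sites elsewhere.

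Nqo1, the quinone reductase that spares cells the redox cycling of quinones, was the member with the largest called TCDD change. At 8 h its levels were 8.69, 8.62, 9.06 and 9.10 in TCDD cells, against 7.47, 7.67, 8.10 and 8.32 in DMSO cells. At 12 h they were 8.80, 8.93, 9.15 and 9.53 in TCDD cells and 7.72, 7.98, 7.91 and 8.33 in DMSO cells. At 24 h they were 8.33, 8.37, 8.72 and 9.01 in TCDD cells and 7.37, 7.11, 8.00 and 8.20 in DMSO cells. At these 3 times every TCDD array lay above every DMSO array. Days with a high level in one group tended to be high in the other.

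The Nqo1 log2 changes were 0.98 ± 0.25 at 8 h (SE, adjusted p = 0.0141), 1.11 ± 0.25 at 12 h (adjusted p = 0.00227) and 0.94 ± 0.25 at 24 h (adjusted p = 0.0118). The largest is 2.17-fold. At 36 and 48 h the changes were 0.67 and 0.71, higher in all 4 same-day pairs, and missed the threshold (adjusted p = 0.117 and 0.0651). With the day as a block both passed (adjusted p = 0.000702 and 0.000254). The F test over times did not call Nqo1, so its smaller late values are not shown to differ from the early ones. Without day 1, 2 or 3 the adjusted p for Nqo1 at 8 h was 0.0903, 0.0807 or 0.122, and without day 2 or 3 at 24 h it was 0.126 or 0.0638. Osgin1, a growth inhibitor induced by oxidative stress and the other tested gene of this group, was dim and ran from -0.65 to 0.39 with no call.

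Among the regulators, none passed in the main fit. Nfe2l2, the NRF2 gene, was 0.11 to 0.32 higher in TCDD cells over the 5 times, with 0.158 as its lowest adjusted p, and passed at 36 h only with the day as a block (adjusted p = 0.0236). Keap1 ran from -0.11 to 0.26. Sqstm1, the autophagy receptor p62 that can sequester KEAP1, was 0.43 higher at 12 h in all 4 same-day pairs and passed only with the day as a block (adjusted p = 0.00746).

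The 2 subunits of glutamate-cysteine ligase, the rate-limiting enzyme of glutathione synthesis, were called in opposite directions at different times. Gclm, the modifier subunit, had levels of 10.24, 10.31, 10.38 and 10.56 in TCDD cells at 12 h, against 10.55, 10.85, 10.99 and 11.38 in DMSO cells. At 24 h the levels of Gclm were 9.76, 9.80, 9.75 and 9.64 in TCDD cells and 10.42, 10.50, 10.40 and 10.25 in DMSO cells. The groups lay fully apart at 24 h, and at 12 h the highest TCDD array just overlapped the lowest DMSO array. Gclm fell by 0.57 at 12 h (SE 0.11, adjusted p = 0.000473) and by 0.65 at 24 h (SE 0.11, adjusted p = 6.04e-05), then differed by -0.03 and 0.09 at 36 and 48 h. At 8 h its change of -0.34 passed only with the day as a block (adjusted p = 0.0332). Its second, dimmer probe set read -0.61 at 12 h and -0.33 at 24 h, with no call.

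Gclc, the catalytic subunit, had levels of 10.26, 10.28, 10.43 and 10.34 in TCDD cells at 36 h, against 9.90, 9.99, 10.08 and 9.99 in DMSO cells. The groups did not overlap. It rose by 0.34 at 36 h (SE 0.08, adjusted p = 0.00633), and at 8 h its change of -0.23 passed only with the day as a block (adjusted p = 0.0475). Without day 3 or 4 the adjusted p at 36 h was 0.0773 or 0.0617. The second Gclc probe set was 0.23 higher at 36 h with no call and passed at 48 h, at 0.38 (adjusted p = 0.0151 over all probe sets). Gss, which completes glutathione, ran from -0.40 to -0.11, and Gsr, which recycles it from its oxidized form, from -0.21 to 0.06, with no call.

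**Figure D2:**
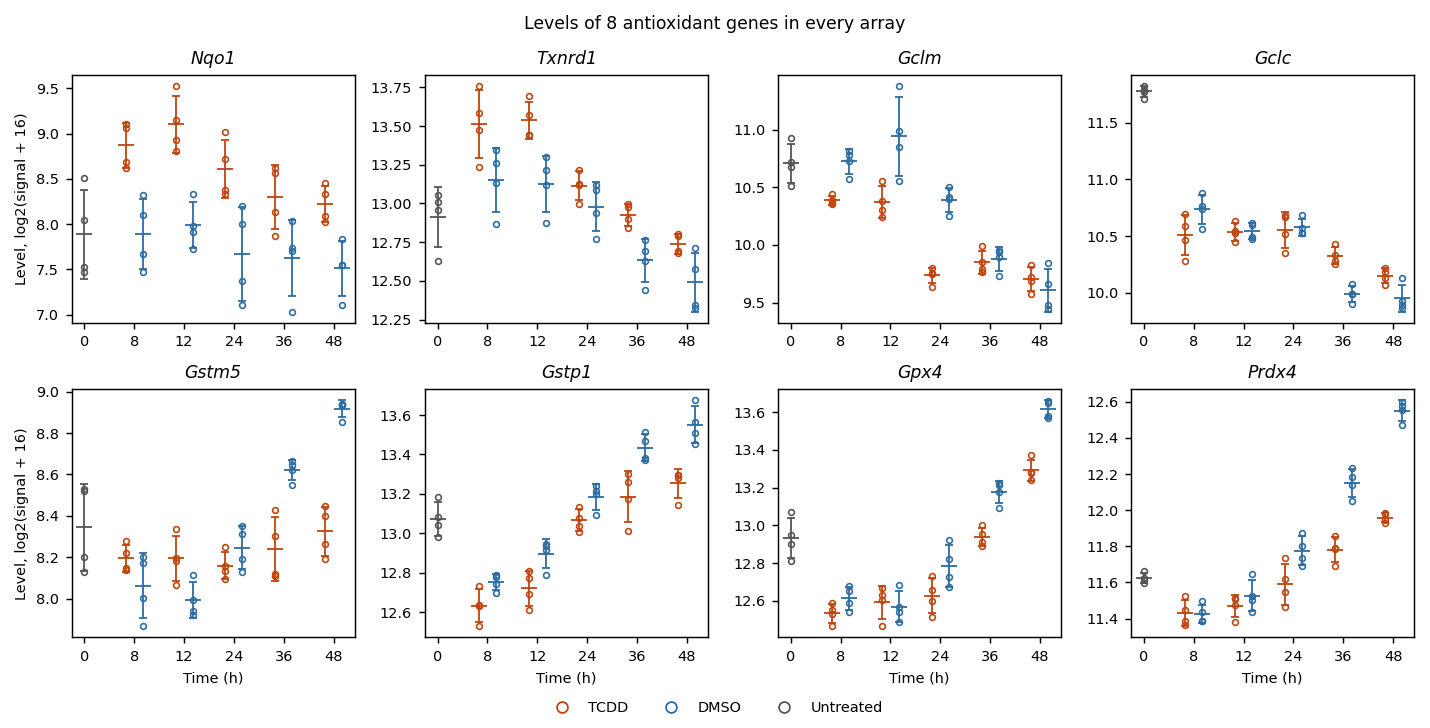
Level, as log2(signal + 16), of 8 members in every array against time (h), with TCDD cells left of DMSO cells and untreated cells at 0 h; circles are arrays, short lines group means and bars 1 SD (n = 4 arrays). TCDD and DMSO arrays do not overlap for Nqo1 at 8, 12, 24 and 48 h, Txnrd1 at 12 and 36 h, Gclm at 8 and 24 h, Gclc at 36 h, and Gstm5, Gstp1, Gpx4 and Prdx4 at 36 and 48 h.

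The falls called at 36 and 48 h were in 4 genes that reduce peroxides or conjugate glutathione. Prdx4, the peroxiredoxin of the endoplasmic reticulum, had levels of 11.98, 11.93, 11.98 and 11.94 in TCDD cells at 48 h, against 12.56, 12.58, 12.60 and 12.47 in DMSO cells. At 36 h the levels of Prdx4 were 11.79, 11.86, 11.79 and 11.69 in TCDD cells and 12.14, 12.23, 12.18 and 12.05 in DMSO cells. The groups lay far apart for their spread at both times. Prdx4 fell by 0.37 at 36 h (SE 0.06, adjusted p = 4.57e-05) and by 0.59 at 48 h (SE 0.06, adjusted p = 7.24e-09), and its -0.18 at 24 h passed only with the day as a block (adjusted p = 0.0117). Its 3 other probe sets were dimmer and none was called, and the mean over all 4 read -0.39 at 36 h and -0.35 at 48 h (adjusted p = 0.16 and 0.182).

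Gstm5, a mu-class glutathione transferase, had levels of 8.19, 8.45, 8.40 and 8.26 in TCDD cells at 48 h, against 8.94, 8.94, 8.94 and 8.86 in DMSO cells. At 36 h Gstm5 read 8.12, 8.11, 8.30 and 8.43 in TCDD cells and 8.62, 8.64, 8.66 and 8.55 in DMSO cells. The groups did not overlap at either time. It fell by 0.38 at 36 h (SE 0.09, adjusted p = 0.00439) and by 0.59 at 48 h (SE 0.09, adjusted p = 9.93e-06). Without day 1, 2 or 3 the adjusted p at 36 h was 0.0639, 0.0831 or 0.0582. Gstm1, of the same class, was 0.63 lower at 48 h in all 4 same-day pairs, and passed only with the day as a block (adjusted p = 0.0107).

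Gstp1, the pi-class transferase, had levels of 13.14, 13.30, 13.28 and 13.29 in TCDD cells at 48 h, against 13.46, 13.67, 13.57 and 13.51 in DMSO cells. At 36 h Gstp1 read 13.01, 13.17, 13.30 and 13.26 in TCDD cells and 13.37, 13.51, 13.38 and 13.47 in DMSO cells. The gaps were small but the groups did not overlap. It fell by 0.25 at 36 h (SE 0.07, adjusted p = 0.0167) and by 0.30 at 48 h (SE 0.07, adjusted p = 0.00212). Its -0.17 at 12 h passed only with the day as a block (adjusted p = 0.0181). The call at 48 h was lost without day 2 (adjusted p = 0.0613), and that at 36 h without day 1, 2 or 4 (0.0765, 0.218 and 0.105). Of the other transferases, Gsto1 ran from -0.19 to 0.13 and the dim Gsta4 from -0.77 to 0.60, with no call.

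Gpx4, the peroxidase that reduces lipid peroxides in membranes, had levels of 13.24, 13.28, 13.37 and 13.28 in TCDD cells at 48 h, against 13.57, 13.66, 13.65 and 13.58 in DMSO cells. At 36 h its lowest level was 12.89 in TCDD cells and 13.09 in DMSO cells. No TCDD array reached a DMSO array at either time. It fell by 0.24 at 36 h (SE 0.06, adjusted p = 0.0167) and by 0.32 at 48 h (SE 0.06, adjusted p = 0.000572). Leaving out any 1 day ended the call at 36 h (adjusted p = 0.0691 to 0.142), and the mean of its 2 probe sets read -0.15 there (adjusted p = 0.404).

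Sod2, the mitochondrial superoxide dismutase, had levels of 11.75, 11.70, 11.77 and 11.52 in TCDD cells at 24 h, against 11.88, 11.96, 11.95 and 12.00 in DMSO cells. The groups did not overlap. Sod2 fell by 0.26 there (SE 0.07, adjusted p = 0.0176), as did 1 of its 3 other probe sets, by 0.30 (adjusted p = 0.00763 over all probe sets). Without day 2, 3 or 4 the adjusted p for Sod2 was 0.147, 0.0514 or 0.184. Gpx1, Sod1 and Cat, the cytosolic peroxidase, the cytosolic dismutase and catalase, were not called, and their changes lay between -0.23 and 0.06. Gpx1 was the steadiest of them, with changes of -0.03 to 0.02 and an SE of 0.06.

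Txnrd1, the cytosolic thioredoxin reductase, had levels of 13.44, 13.57, 13.44 and 13.69 in TCDD cells at 12 h, against 12.88, 13.12, 13.22 and 13.30 in DMSO cells. The groups did not overlap. It rose by 0.41 (SE 0.11, adjusted p = 0.0152), and was 0.36, 0.30 and 0.25 higher at 8, 36 and 48 h, which passed only with the day as a block (adjusted p = 0.00112, 0.0069 and 0.019). Txnrd1 was higher in TCDD cells in all 4 same-day pairs at every time. The 12 h call was lost without day 2, 3 or 4 (adjusted p = 0.168, 0.0528 and 0.0587) and with the mean of its 3 probe sets (0.37, adjusted p = 0.314). Txn1, Txnrd2, Prdx2 and Prdx3 stayed between -0.21 and 0.16 with no call. Srxn1, the dim sulfiredoxin gene, was 1.07 higher at 24 h, with an SE of 0.38 and an adjusted p of 0.087.

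Of the genes that supply NADPH, none passed in the main fit. Me1, the malic enzyme, had levels of 9.33, 9.32, 9.54 and 9.84 in TCDD cells at 12 h, against 8.78, 8.84, 9.11 and 9.24 in DMSO cells. Its change of 0.52 missed the threshold (SE 0.17, adjusted p = 0.0517) and passed with the day as a block (adjusted p = 0.00179). Pgd of the pentose phosphate pathway was 0.27 higher at 36 h, again past the threshold only with the block (adjusted p = 0.0482). Abcc1, an exporter of glutathione conjugates, had levels of 11.23, 11.25, 11.34 and 11.24 in TCDD cells at 8 h, against 11.61, 11.48, 11.61 and 11.67 in DMSO cells. It fell by 0.33 (SE 0.09, adjusted p = 0.0273), and leaving out any 1 day ended that call (adjusted p = 0.12 to 0.128). Fth1, the ferritin heavy chain, ran from -0.09 to 0.16 with no call.

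Whether the TCDD effect itself changed over time was tested with an F test of 4 interaction contrasts. It called 4 members, Prdx4 (adjusted p = 2.38e-05), Gstm5 (5.34e-05), Gclm (0.00243) and Gclc (0.00626), where 6.98% of all genes were called. With the day as a block it called 6 members, adding Gpx4 (adjusted p = 0.016) and Sqstm1, and 16% of all genes. Between 8 and 48 h Prdx4 climbed by 0.53 in TCDD cells and by 1.13 in DMSO cells, a difference of -0.60 ± 0.08 (SE). Gstm5 climbed by 0.13 in TCDD cells and by 0.86 in DMSO cells, a difference of -0.72 ± 0.12. Gclm dropped by 0.68 in TCDD cells and by 1.11 in DMSO cells, a difference of 0.43 ± 0.16. Gclc dropped by 0.36 in TCDD cells and by 0.78 in DMSO cells, a difference of 0.43 ± 0.11. In each of the 4 the change between 8 and 48 h was the smaller one in TCDD cells. Between 8 and 24 h, however, Gclm dropped more in TCDD cells. Its mean went from 10.39 to 9.74 in TCDD cells and from 10.72 to 10.39 in DMSO cells. The Gclc call was lost without day 2, 3 or 4 (adjusted p = 0.0774, 0.162 and 0.132), that of Gclm without day 2 or 3 (0.119 and 0.0518), and that of Prdx4 with the mean of its probe sets (0.598).

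**Figure D3:**
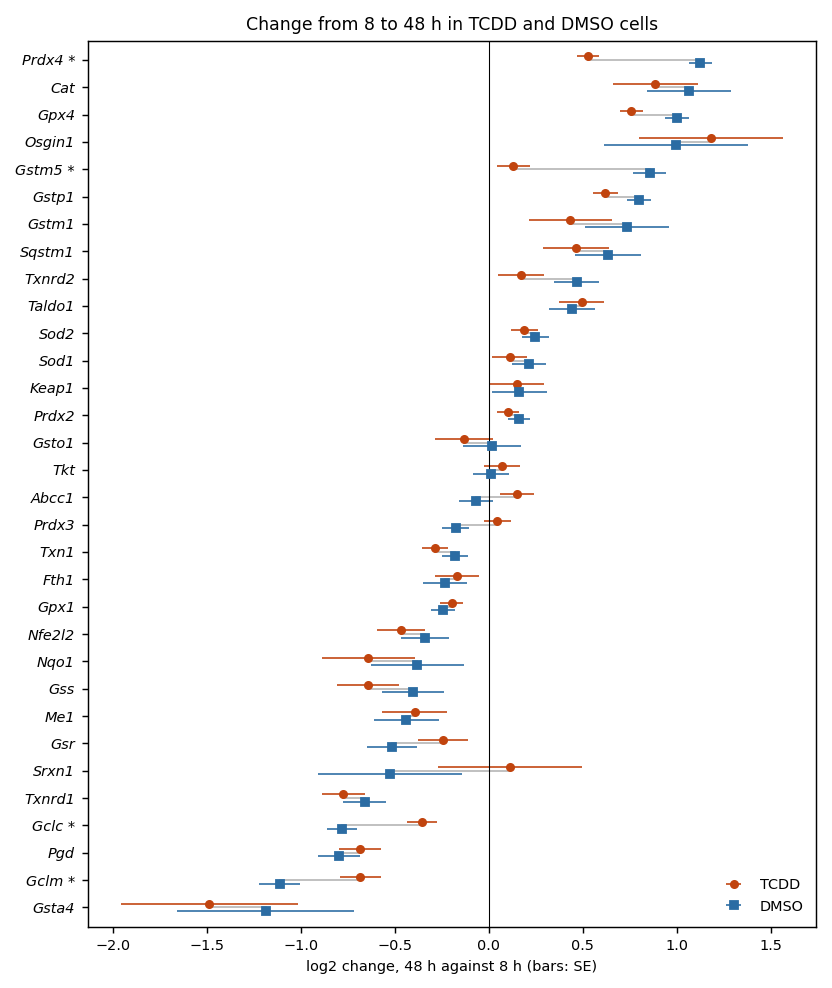
log2 change between 8 and 48 h in TCDD cells (circles) and DMSO cells (squares) for the 32 tested members, ordered by the change in DMSO cells. Bars are SEs from the fit over all 44 arrays, 4 per group, with 1 spread per gene shared by the groups. Stars mark the 4 members called by the F test over all 5 times. Prdx4, Gstm5, Gclc and Gclm have the widest gaps for their bars, with the TCDD symbol nearer 0.

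The second question of the design is how these genes behave as LPS-activated cells progress without TCDD. By 48 h members had moved in both directions. The largest called changes were lower levels of Gclc, Gsta4, Gclm and Pgd in DMSO than in untreated cells, and higher levels of Prdx4, Gstm1, Gpx4 and Gstm5. Of the 4 genes of glutathione synthesis and recycling, 2 were called lower at 48 h, and 3 with the day as a block. In all, 21 of the 32 tested members passed the test at 1 or more times against untreated cells, 11 at none, where 59.9% of all genes passed at 1 or more. The call counts were 1 higher and 7 lower at 8 h (11.2% and 13.4% of all genes), 2 and 7 at 12 h (11% and 13.8%), and 1 and 4 at 24 h (9.39% and 10.3%). They were 8 and 6 at 36 h (15.4% and 15.9%) and 9 and 8 at 48 h (23.4% and 20.5%). With the day as a block, 2 were higher and 8 lower at 8 h (1784 and 2092 of all 11970 genes). The counts were 4 and 8 at 12 h (1835 and 2104), and 4 and 4 at 24 h (1651 and 1669, or 13.8% and 13.9%). At 36 h they were 9 and 7 (2326 and 2398), and at 48 h 10 and 12 (3235 and 2877). These comparisons share the 4 untreated arrays, 2 of which stood apart, and share the DMSO arrays with those of TCDD. Without the 4 arrays standing apart, 7, 7, 3, 12 and 13 members were called at 8, 12, 24, 36 and 48 h. All genes were not counted without these arrays, so the shift is not shown to be particular to the members. At 24 h the calls of Gclm, Gpx1 and Sqstm1 were then lost, and at 48 h those of Txnrd1, Txnrd2, Prdx2, Prdx3 and Taldo1.

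**Figure D4:**
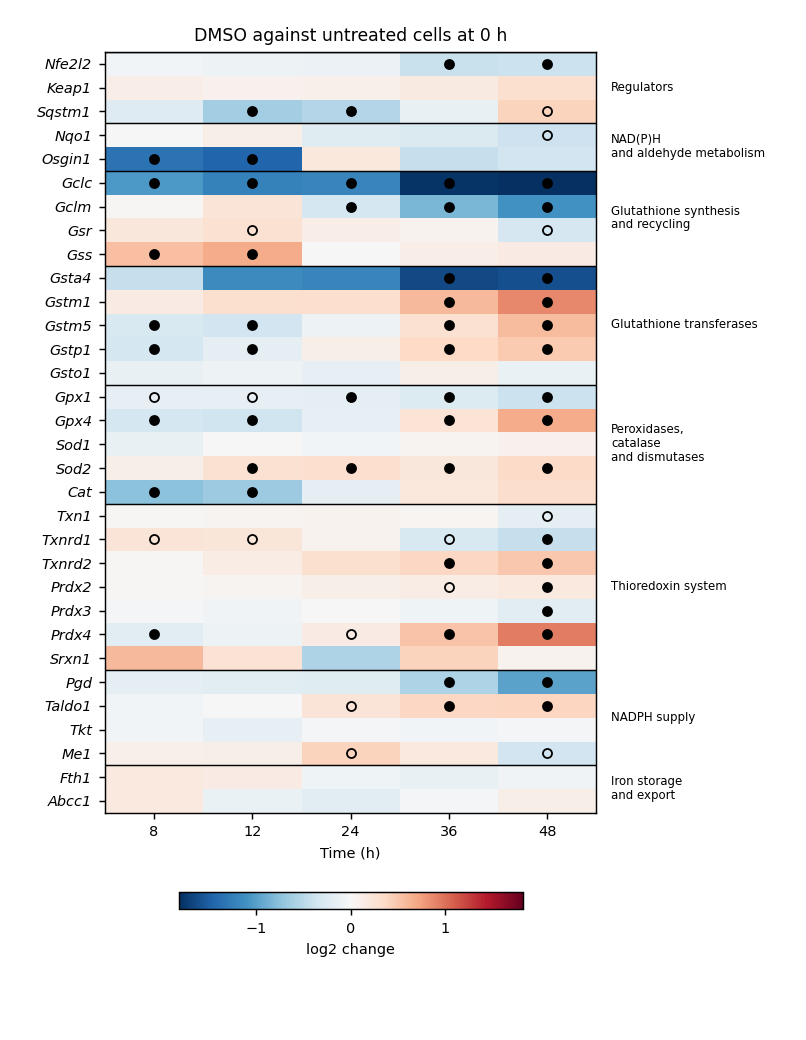
log2 change of DMSO cells at each time (h) against untreated cells at 0 h for the 32 tested members, grouped by role; filled circles mark changes past the threshold in the main fit and open circles those past it only with the day as a block. Gclc is blue at every time and Gclm, Gsta4 and Pgd by 36 h, whereas Prdx4, Gstm1 and Gpx4 are the reddest at 48 h.

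Gclc fell at all 5 times. Its levels were 10.57, 10.74, 10.76 and 10.88 in DMSO cells at 8 h and 9.89, 10.13, 9.93 and 9.86 at 48 h, against 11.77, 11.79, 11.83 and 11.71 in untreated cells. At all 5 times the DMSO arrays lay below the untreated ones. Gclc fell by 1.04 at 8 h (SE 0.08, adjusted p = 1.3e-12). At 48 h it fell by 1.82 (SE 0.08, adjusted p = 9.98e-20), a 3.54-fold difference, and its second probe set fell by 1.53. Gclm had levels of 9.48, 9.67, 9.84 and 9.44 in DMSO cells at 48 h, against 10.51, 10.67, 10.92 and 10.72 in untreated cells. It was level with untreated cells at 8 h, then fell by 0.32 at 24 h, 0.83 at 36 h and 1.10 at 48 h (SE 0.11, adjusted p = 3.09e-10 at 48 h). Gss moved the other way early, rising by 0.55 and 0.67 at 8 and 12 h (adjusted p = 0.0117 and 0.00197). All 4 tested genes of glutathione synthesis and recycling were lower at 48 h than at 8 h in DMSO cells, Gsr by 0.52 and Gss by 0.40. The 24 h call of Gclm was lost without day 2, 3 or 4 (adjusted p = 0.107 to 0.272) and the 8 h call of Gss without day 2 (0.132). The fall of Gss between 8 and 48 h was lost without day 1, 2 or 4 (0.0577 to 0.199).

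The transferases split too. Gsta4, an alpha-class enzyme that clears lipid aldehydes, had levels of 5.03, 6.30, 5.81 and 5.00 in DMSO cells at 48 h, against 7.04, 7.34, 7.66 and 6.52 in untreated cells. It fell by 1.61 there (SE 0.47, adjusted p = 0.00512), a value that ran from -0.99 to -2.08 with the other pseudocounts, since the signal is dim. Gstm1 had levels of 8.13, 8.00, 8.40 and 8.60 in DMSO cells at 48 h, against 7.07, 7.40, 7.30 and 7.83 in untreated cells. It rose by 0.88 (SE 0.22, adjusted p = 0.00134), though with the mean of its 4 probe sets the change was 0.48 (adjusted p = 0.104). Of those 4, 2 stayed below the filter. The probe sets that stand for Gstm1, Gsto1, Pgd, Tkt, Srxn1 and Sod1 are of types that can also bind related transcripts, so these values are uncertain.

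Gstm5, Gstp1 and Gpx4 were called lower at 8 and 12 h and higher at 36 and 48 h. Gstm5 fell by 0.28 and 0.35 at 8 and 12 h and rose by 0.28 and 0.57 at 36 and 48 h (adjusted p = 1.35e-06 at 48 h). Its levels at 48 h were 8.94, 8.94, 8.94 and 8.86 in DMSO cells, against 8.20, 8.13, 8.52 and 8.53 in untreated cells. Without the 4 arrays standing apart, Gstm5 read -0.10 and -0.15 at 8 and 12 h (adjusted p = 0.511 and 0.366). Both early calls were also lost without day 3 or 4 (0.0565 to 0.239), and that at 36 h without day 1 or 2 (0.103 and 0.166). Gstp1 fell by 0.32 and 0.18 and then rose by 0.36 and 0.48 at the same times, and its 12 h call was lost with any 1 day left out (adjusted p = 0.065 to 0.24). That 12 h call of Gstp1 was lost in 10 of 15 alternatives, among them no filter, the values as deposited and leaving out the 4 arrays standing apart. Gpx4 fell by 0.32 and 0.36 and then rose by 0.24 and 0.68 (adjusted p = 4.36e-11 at 48 h), with 48 h levels of 13.57, 13.66, 13.65 and 13.58 in DMSO cells, against 12.95, 13.07, 12.81 and 12.90 in untreated cells. The Gpx4 rise at 36 h was lost without the 4 arrays (0.17, adjusted p = 0.0961) and with the mean of its probe sets (0.21, adjusted p = 0.0557). Prdx4 fell by 0.20 at 8 h, a call lost without day 2 or 3 (adjusted p = 0.135 and 0.0684), and rose by 0.53 at 36 h and 0.93 at 48 h (SE 0.06, adjusted p = 4.65e-15). Its 48 h levels were 12.56, 12.58, 12.60 and 12.47 in DMSO cells, against 11.63, 11.66, 11.61 and 11.60 in untreated cells. The mean of the Prdx4 probe sets rose by 0.28 with no call (adjusted p = 0.134). Cat fell by 0.75 and 0.66 at 8 and 12 h and at 48 h stood 1.07 above its 8 h level (adjusted p = 0.000145). Both early Cat calls were lost without day 1, 2 or 3 (adjusted p = 0.0677 to 0.139).

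Set side by side, with DMSO arrays shared by both, these 4 genes read as follows at 48 h. Prdx4 was 0.59 lower in TCDD than in DMSO cells, and 0.93 higher in DMSO than in untreated cells. Gstm5 was 0.59 lower in TCDD than in DMSO cells, and 0.57 higher in DMSO than in untreated cells. For Gpx4 the values were 0.32 lower and 0.68 higher, and for Gstp1 0.30 lower and 0.48 higher.

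Pgd, the gene of 6-phosphogluconate dehydrogenase, had levels of 11.95, 12.45, 12.07 and 12.12 in DMSO cells at 48 h, against 12.80, 12.98, 13.37 and 13.34 in untreated cells. It fell by 0.57 at 36 h and by 0.98 at 48 h (SE 0.11, adjusted p = 4.98e-09), and its 3 other probe sets fell as well. Taldo1, of the same pentose phosphate pathway, rose by 0.37 at 36 h and 0.40 at 48 h, and Tkt was not called. Sod2 rose by 0.28, 0.31, 0.21 and 0.35 at 12, 24, 36 and 48 h, with 0.13 at 48 h for the mean of its 4 probe sets (adjusted p = 0.281). Gpx1 fell by 0.18, 0.25 and 0.39 at 24, 36 and 48 h. Its 24 h call was lost with any 1 day left out (adjusted p = 0.0776 to 0.181), and its 36 h call with the values as deposited (-0.18, adjusted p = 0.139). Both Taldo1 calls were lost without day 1 or 3 (adjusted p = 0.0598 to 0.106). The Sod2 calls were lost without day 1 or 2 at 12 h (0.0523 and 0.0521), without day 2 at 24 h (0.0651) and without day 1, 2 or 3 at 36 h (0.123 to 0.234).

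Nfe2l2 fell by 0.41 and 0.39 at 36 and 48 h (adjusted p = 0.0128 and 0.0116), and Keap1 was not called at any time. The mean with its second probe set, which stayed below the filter, ended both calls (adjusted p = 0.0992 and 0.147), as did leaving out day 2 or 3 (0.106 to 0.148) and, at 48 h, day 4 (0.0534). Sqstm1 fell by 0.64 and 0.54 at 12 and 24 h, and at 48 h stood 0.63 above its 8 h level (adjusted p = 0.00294). The Sqstm1 falls were lost without day 2 at 12 h (adjusted p = 0.111) and without day 2, 3 or 4 at 24 h (0.0519 to 0.244). Nqo1 itself was not called against untreated cells in the main fit. Its change of -0.37 at 48 h passed only with the day as a block (adjusted p = 0.0203). The dim Osgin1 fell by 1.34 and 1.45 at 8 and 12 h (adjusted p = 0.00832 and 0.0042), and its 8 h call was lost without the 4 arrays standing apart (-0.94, adjusted p = 0.0934) and without day 3 or 4 (0.0622 and 0.0691), and its 12 h call without day 3 (0.108).

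In the thioredoxin system Txnrd2, the mitochondrial reductase, rose by 0.38 and 0.50 at 36 and 48 h, whereas Txnrd1 fell by 0.42 at 48 h (adjusted p = 0.00238). The mean of the Txnrd1 probe sets read -0.23 at 48 h (adjusted p = 0.394). Prdx2 rose by 0.18 and the mitochondrial peroxiredoxin Prdx3 fell by 0.21 at 48 h. A second Prdx2 probe set fell by 0.60 at 48 h, so the direction of Prdx2 depends on the probe set. At 48 h the calls were lost for Txnrd1 without day 2 (adjusted p = 0.0685), for Prdx2 without day 1 or 3 (0.0553 and 0.335) and for Prdx3 without day 1, 2 or 4 (0.061 to 0.192), and at 36 h for Txnrd2 without day 3 (0.191). Within DMSO cells, 13 members were higher and 12 lower at 48 h than at 8 h, where 26.8% and 21.2% of all genes were. That is 25 of 32 members, with a median change of -0.03, against 0.04 for all genes.

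Of 61 other genes of the same chemistry, 46 could be tested. Leaving out days or arrays and averaging probe sets were checked for the members only. How firm the calls of these other genes are was therefore not tested. TCDD raised 1, 3, 3, 2 and 2 of them at 8, 12, 24, 36 and 48 h and lowered 0, 2, 0, 1 and 1. Of all genes, 2.75%, 6.07%, 4.8%, 3.49% and 4.31% were called higher at these times. The shares called lower were 1.4%, 3.14%, 2.77%, 2.4% and 4.54%. Cbr3, a carbonyl reductase, rose at 8, 12, 24 and 36 h by 0.55, 0.64, 0.88 and 0.57. Bach2, a B cell repressor of the BACH family whose close relative BACH1 competes with NRF2 at antioxidant response elements, rose by 2.23, 2.26 and 2.23 at 12, 24 and 36 h. At 12 h Bach1 rose by 0.47, and Ggct, which breaks down gamma-glutamyl peptides, fell by 0.51. At 24 h Sephs2 rose by 0.29. At 36 h Glrx, a glutaredoxin, fell by 0.36. At 48 h Txnip, an inhibitor of thioredoxin, rose by 0.88, Blvra rose by 0.42 and Idh1 fell by 1.25.

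In DMSO cells against untreated ones, 2, 3, 5, 12 and 12 of these 46 genes rose at 8, 12, 24, 36 and 48 h, and 10, 11, 6, 6 and 11 fell. Of all genes, 11.2%, 11%, 9.39%, 15.4% and 23.4% were called higher at these times. The shares called lower were 13.4%, 13.8%, 10.3%, 15.9% and 20.5%. Chac1, which degrades glutathione, fell by 1.34 at 8 h and rose by 1.75, 3.13 and 3.59 at 24, 36 and 48 h. Slc7a11, the cystine importer that feeds glutathione synthesis, fell by 0.85 and 0.96 at 8 and 12 h and rose by 1.39 and 1.84 at 36 and 48 h. Bach2 fell by 1.08, 2.40, 2.77 and 2.16 at 12, 24, 36 and 48 h. Chac2, of the same family as Chac1, rose by 0.86 at 24 h, and Txnip by 0.95 at 36 h. Bach1 fell by 1.34 at 12 h and 0.66 at 24 h, after a larger fall at 8 h. Idh1 fell by 1.22 and 1.94 at 8 and 12 h, and Cbr3 by 1.05, 1.11, 1.30, 0.75 and 0.41 at the 5 times. At 48 h the exporter gene Abcc4 fell by 1.33. Between 8 and 48 h in DMSO cells, Chac1 rose by 4.93 (SE 0.32), Slc7a11 by 2.69 (SE 0.31) and Idh1 by 2.12 (SE 0.395). Nfe2l1, an NRF2 relative, rose by 1.59 (SE 0.19). These genes were among 19 that rose, while 11 fell (26.8% and 21.2% of all genes).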

How the data were processed

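The members and the lists of related genes were chosen with earlier results of these data known. RNA of 44 samples was hybridised to 1 Affymetrix mouse array each. The authors deposited linear signal intensities from GCOS 1.0, per the submitters' processing notes, and further steps are not known here. The mean of each deposited column is 500.0 once 2% of its values are left out at either end, so the arrays had been scaled before deposit.

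Of 45101 probe sets, 64 controls were left out. Values were quantile normalized and turned into log2(value + 16). Genes were kept if their highest group mean lay above 6.21 (11970 of 18193). One limma 3.58.1 fit (R 4.3.3) of 11 group means gave two-sided moderated tests, adjusted by Benjamini-Hochberg per comparison. P-values measure the spread between days of 1 cell line. The scripts were tested on simulated data.

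The series' design text gives each replicate number its own day, which pairs the samples. Deviations from group means had a median r of 0.18 within a day and -0.066 between days, and 18 of 20 TCDD and DMSO pairs of 1 day and time had r above 0.1. All members could be named, and values per array are listed for those called with TCDD and for the 4 largest changes per direction in DMSO cells at 48 h. Me1, listed too, was chosen after its values were seen. Related genes are named by the 4 largest called changes per comparison, and some are followed to other times. Motifs were searched in RefSeq promoter windows. Figures were drawn with matplotlib 3.10.9.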

Additional observations from a re-analysis of the deposited data

Results flagged for a closer look

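The TCDD effect differed between times in 4 members by the F test of the interaction contrasts: Prdx4 (adjusted p = 2.38e-05), Gstm5 (5.34e-05), Gclm (0.00243) and Gclc (0.00626).

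Single arrays stood far from the other 3 of their group in 10 of 352 checks of a member in a group, where Dixon's test would flag 17.6 by chance. In DMSO cells at 48 h, Nfe2l2 read 10.40 in replicate 1 (others 9.66 to 9.77), Gsr 10.10 in replicate 3 (others 10.02 to 10.03) and Gstm5 8.86 in replicate 4 (the others 8.94 each). In TCDD cells at 48 h, Gstp1 read 13.14 and Osgin1 4.57 in replicate 1 (others 13.28 to 13.30 and 6.37 to 6.57), and Fth1 14.72 in replicate 4 (others 14.52 to 14.54). Gsto1 read 11.43 in replicate 3 of DMSO cells at 8 h (others 12.04 to 12.10), and Sod1 13.19 in replicate 4 at 12 h (others 13.29 to 13.31). In replicate 1 of DMSO cells at 24 h, Prdx3 read 12.64 (others 12.72 to 12.73) and Sod1 13.33 (others 13.19 to 13.21).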

How the results depend on the processing

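Of 99 results for a single member that passed the test, 34 kept their call in all 15 alternatives, and 99 did so with the day as a block (the replicate block). None changed sign except when all probe sets of a gene were averaged. Averaging turned Prdx2 at 48 h against untreated cells (-0.21, adjusted p = 0.075). Prdx2 against 8 h turned too (-0.40, adjusted p = 0.000883), past the threshold in the new direction. Sod1 against 8 h (-0.032, adjusted p = 0.752) and Sod2 against 8 h (-0.13, adjusted p = 0.261) also turned. Fitting only the arrays compared, which uses fewer samples, ended 52 of the 99 calls, and leaving out 1 day ended 22 to 38. Leaving out the 4 arrays standing apart ended 20. As deposited, without quantile normalization, the median of all genes in DMSO cells at 48 h against 8 h was 0.14, against 0.04. Genes near the filter, such as Srxn1, Osgin1 and Gsta4, lie close to background, where small changes could not be detected.

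Counts of members called moved by over 1.5 times as follows. Apart from the replicate block, all genes were not counted in these alternatives. A shift in the members can therefore not be told from one over all genes. TCDD against DMSO at 8 h called 2 members, and 5 with the replicate block, 0 with only the arrays compared, 1 with no filter, 4 with the values as deposited, 4 without the 4 arrays standing apart, and 0 to 2 without 1 day. At 12 h the 3 members became 6 with the block, 1 with only the arrays compared, 5 without the 4 arrays, and 2 to 3 without 1 day. At 24 h the 3 became 1 to 3 without 1 day. At 36 h the 5 became 9 with the block, 1 with only the arrays compared, 3 with the mean of probe sets and 2 to 3 without 1 day. At 48 h the 4 became 7 with the block, 2 with only the arrays compared and 3 to 5 without 1 day.

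DMSO against untreated cells called 8 members at 8 h, and 2 with only the arrays compared, 13 with the mean of probe sets, and 4 to 7 without 1 day. At 12 h the 9 became 2 and, without 1 day, 5 to 7. At 24 h the 5 became 8 with the block, 1 with only the arrays compared, 3 with no filter, 3 without the 4 arrays, and 1 to 5 without 1 day. At 36 h the 14 became 6 with only the arrays compared and 8 to 14 without 1 day. At 48 h the 17 stayed between 12 and 22 in all alternatives. DMSO at 48 h against 8 h called 25, and 15 with only the arrays compared and 17 to 20 without 1 day. The interaction called 4, and 2 to 4 without 1 day. The cause of these shifts was not tested.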
